A study of Mus musculus with 8 samples.

Results

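The 10 genes described here carry out oxysterol synthesis, oxysterol sensing and cholesterol efflux in macrophages. They were taken by name from the 37020 genes and transcripts measured on the array, and all 10 (Ch25h, Nr1h3, Nr1h2, Abca1, Abcg1, Apoe, Mylip, Lpl, Pltp and Soat1) had a probe bright enough to be tested. Their RNA levels were compared between FURIN KO and WT peritoneal macrophages that were unstimulated or stimulated with LPS, the bacterial ligand of Toll-like receptor 4, at 1 μg/ml for 1, 4 or 24 h. KO cells came from LysMCre-fur(fl/fl) mice, in which the Cre recombinase expressed from the lysozyme 2 (Lyz2) locus deletes Furin in myeloid cells, so that lymphocytes and other non-myeloid cells of the peritoneal wash keep the gene. WT cells came from littermates, and both genotypes were on the C57BL/6 background. The age of the animals used for the arrays was not given in the sources used here.

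Each of the 4 time points was measured on 2 Agilent two-colour arrays, a KO sample sharing each array with the WT sample of its time. The KO sample carried Cy5 on the replicate 1 arrays and Cy3 on those of replicate 2, so a difference between replicates cannot be told apart from a difference between dye orientations. All 8 arrays were on 1 slide, with the unstimulated and 1 h arrays in one row and the 4 and 24 h arrays in the other, so that array row and the step from 1 to 4 h cannot be told apart. Levels are given as normalised log2 intensities, where a difference of 1 is a doubling, and a level of one gene is not comparable with that of another, since each has its own probe. The study names the replicates as biological, and a mean over 2 of them rests on few samples.

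Cholesterol in a macrophage is taken up with lipoproteins, stored as ester droplets and exported to extracellular acceptors. The enzyme encoded by Ch25h hydroxylates cholesterol on its side chain to an oxysterol, and Ch25h is known as an interferon- and Toll-like receptor-induced gene. Oxysterols activate the nuclear receptors LXRα (Nr1h3) and LXRβ (Nr1h2), which pair with RXR and switch on the exporters Abca1 and Abcg1, the lipoprotein Apoe, the ubiquitin ligase Mylip, which limits cholesterol uptake, and the lipoprotein-modifying Lpl and Pltp. SOAT1 esterifies cholesterol for storage.

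The labels were checked on Furin and Lyz2. The log2 KO/WT ratio of Furin was -0.59 and -0.85 in unstimulated samples (replicates 1 and 2). LPS for 1 h gave -0.56 and -0.55 and for 24 h -0.59 and -0.69, but LPS for 4 h gave 0.00 and 0.33, so that Furin was not lower in the 4 h samples labelled KO. The mean of the 4 time points was -0.44 (SE 0.06, adjusted p = 0.022, limma), and whether the probe lies in the deleted part of the gene was not checked. Lyz2 was lower in KO on all 8 arrays, with log2 ratios from -1.85 to -0.75, so the 4 h samples are described below by their labels. Of 5 macrophage markers listed, the 4 with a probe (Adgre1, Csf1r, Itgam and Cd14) were well above background in all 16 channels, a channel being 1 RNA sample on 1 array. The 4 B cell markers and the 5 mast cell markers were also well above background in every channel, whereas none of the 4 adipocyte markers was in any. In RNA of a mixed cell preparation, fewer cells of a type and less RNA per cell cannot be told apart.

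The promoters of 3 genes are shown because these transcripts gave the steepest LPS response (Ch25h) or the widest KO/WT ratios at 4 h (Abca1 and Mylip). Each run is the 250 bases before the start that RefSeq annotates in GRCm38.p6, 5′ to 3′ on the strand of the gene. They lie at chr19:34475149-34475398 (minus strand) for Ch25h, chr4:53159896-53160145 (minus strand) for Abca1 and chr13:45389492-45389741 (plus strand) for Mylip. Capitals mark every match to the motifs named after them.
Ch25h: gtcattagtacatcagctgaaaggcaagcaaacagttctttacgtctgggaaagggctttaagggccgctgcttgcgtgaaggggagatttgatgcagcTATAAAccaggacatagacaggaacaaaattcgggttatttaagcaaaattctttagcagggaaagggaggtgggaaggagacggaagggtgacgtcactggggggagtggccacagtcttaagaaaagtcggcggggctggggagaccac
Abca1: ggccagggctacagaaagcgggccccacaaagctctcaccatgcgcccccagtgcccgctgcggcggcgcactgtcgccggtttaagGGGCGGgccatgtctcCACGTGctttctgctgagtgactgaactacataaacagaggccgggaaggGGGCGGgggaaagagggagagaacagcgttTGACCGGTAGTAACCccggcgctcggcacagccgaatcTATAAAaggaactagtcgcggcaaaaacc
Mylip: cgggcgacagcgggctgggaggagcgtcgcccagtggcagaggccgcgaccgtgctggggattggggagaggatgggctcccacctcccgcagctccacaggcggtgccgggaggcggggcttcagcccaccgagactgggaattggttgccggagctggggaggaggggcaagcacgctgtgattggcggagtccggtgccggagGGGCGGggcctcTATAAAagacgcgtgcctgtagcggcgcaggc

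Promoters were searched on both strands for the DR4 element bound by LXR with RXR (GGTNA, any 5 bases, GGTNA), NF-kB (GGG, any 2 bases, TTTCC), the interferon elements ISRE (GAAA, any 2 bases, GAAA) and GAS (TTC, any 3 bases, GAA), the E-box (CACGTG), Sp1 (GGGCGG) and the TATA box (TATAAA). The Abca1 promoter held a DR4 match on its opposite strand, 67 to 53 bases before the start. Such a match was present in 0.621% of 32851 mouse promoters of this length, and in no other of the 8 genes with a promoter entry (all but Abcg1 and Lpl). Abca1 also held an E-box 147 to 142 bases before the start, Sp1 matches at 163 to 158 and 97 to 92, and a TATA box at 29 to 24. The Ch25h promoter held only a TATAAA, 151 to 146 bases before the start, and the Mylip promoter an Sp1 match at 44 to 39 and a TATA box at 32 to 27. No NF-kB, ISRE or GAS letters were found in the promoter windows of the 8 genes, where 1.41%, 2.98% and 7.02% of all promoters held them. The E-box was present in 6.02%, Sp1 in 32.7% and TATAAA in 12.4% of all promoters. None of the matches shown overlap each other. A match describes these letters and is not a measured binding site.

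Most of the 10 genes differed from unstimulated cells after 4 h of LPS. No untreated samples were measured at 1, 4 or 24 h, so LPS and hours in culture cannot be told apart in any LPS response given here. In WT cells, 2 of the 10 genes passed the test at 1 h (limma on separate channels, adjusted p under 0.05 over all genes), where 8.5% of 36929 genes and transcripts did. Of these 1 was higher and 1 lower (3.38% and 5.12% of all). At 4 h 9 of the 10 passed against 34.7% of all, with 2 higher and 7 lower (15.5% and 19.3% of all). At 24 h 8 passed against 30.5% of all, with 2 higher and 6 lower (13.5% and 17% of all). In KO cells 1 of the 10 passed at 1 h, and it was higher, where 7.47% of all passed (3.1% higher and 4.38% lower). At 4 h 7 passed in KO against 36% of all, with 2 higher and 5 lower (16.2% and 19.8% of all). At 24 h 8 passed against 28.7% of all, with 2 higher and 6 lower (12.7% and 16% of all). From 4 to 24 h 7 of the 10 changed in WT and 6 in KO, where 29.7% and 30.7% of all did. The median log2 change of the 10 genes was -1.32 in WT and -0.64 in KO at 4 h, where that of all genes tested was 0.00 in both. Nr1h2, for which no direction is given below, is counted as lower in WT at 4 and 24 h and in KO at 24 h. The LPS times share their unstimulated samples, and KO and WT share arrays, so these counts are not independent. Markers of several cell types moved with LPS as well. In WT the B cell sum went from 15.97 and 16.35 unstimulated to 15.11 and 15.37 after 4 h, and the T and NK cell sum from 13.12 and 13.80 to 12.02 and 12.56. After 24 h the WT mast cell sum was 11.52 and 10.68 (13.38 and 12.87 unstimulated), the macrophage sum 17.40 and 17.70 (18.38 and 18.26), and the neutrophil sum 15.87 and 14.47 (11.52 and 11.59). The WT sum of the mesothelial and fibroblast markers was 11.09 and 11.17 after 24 h (9.82 and 9.83 unstimulated), and that of the steroid-producing cell markers 11.27 and 9.50 (12.06 and 9.69). In KO the B cell sum was 14.72 and 15.33 after 4 h (16.13 and 16.67 unstimulated), and the T and NK cell sum 12.22 and 12.16 (13.62 and 13.84). After 24 h the KO mast cell sum was 11.74 and 11.77 (13.16 and 13.73), the macrophage sum 17.21 and 17.01 (18.23 and 18.27) and the neutrophil sum 15.20 and 15.98 (11.44 and 11.16). The KO mesothelial and fibroblast sum was 11.42 and 11.47 (10.11 and 9.86), and that of the steroid-producing cell markers 9.88 and 10.21 (10.06 and 10.60). Only 2 of the 4 neutrophil markers were well above background in each sample, and S100a8 made up most of their sum at 24 h. The part of the markers of any of these cell types in the LPS changes was not tested.

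**Figure D1:**
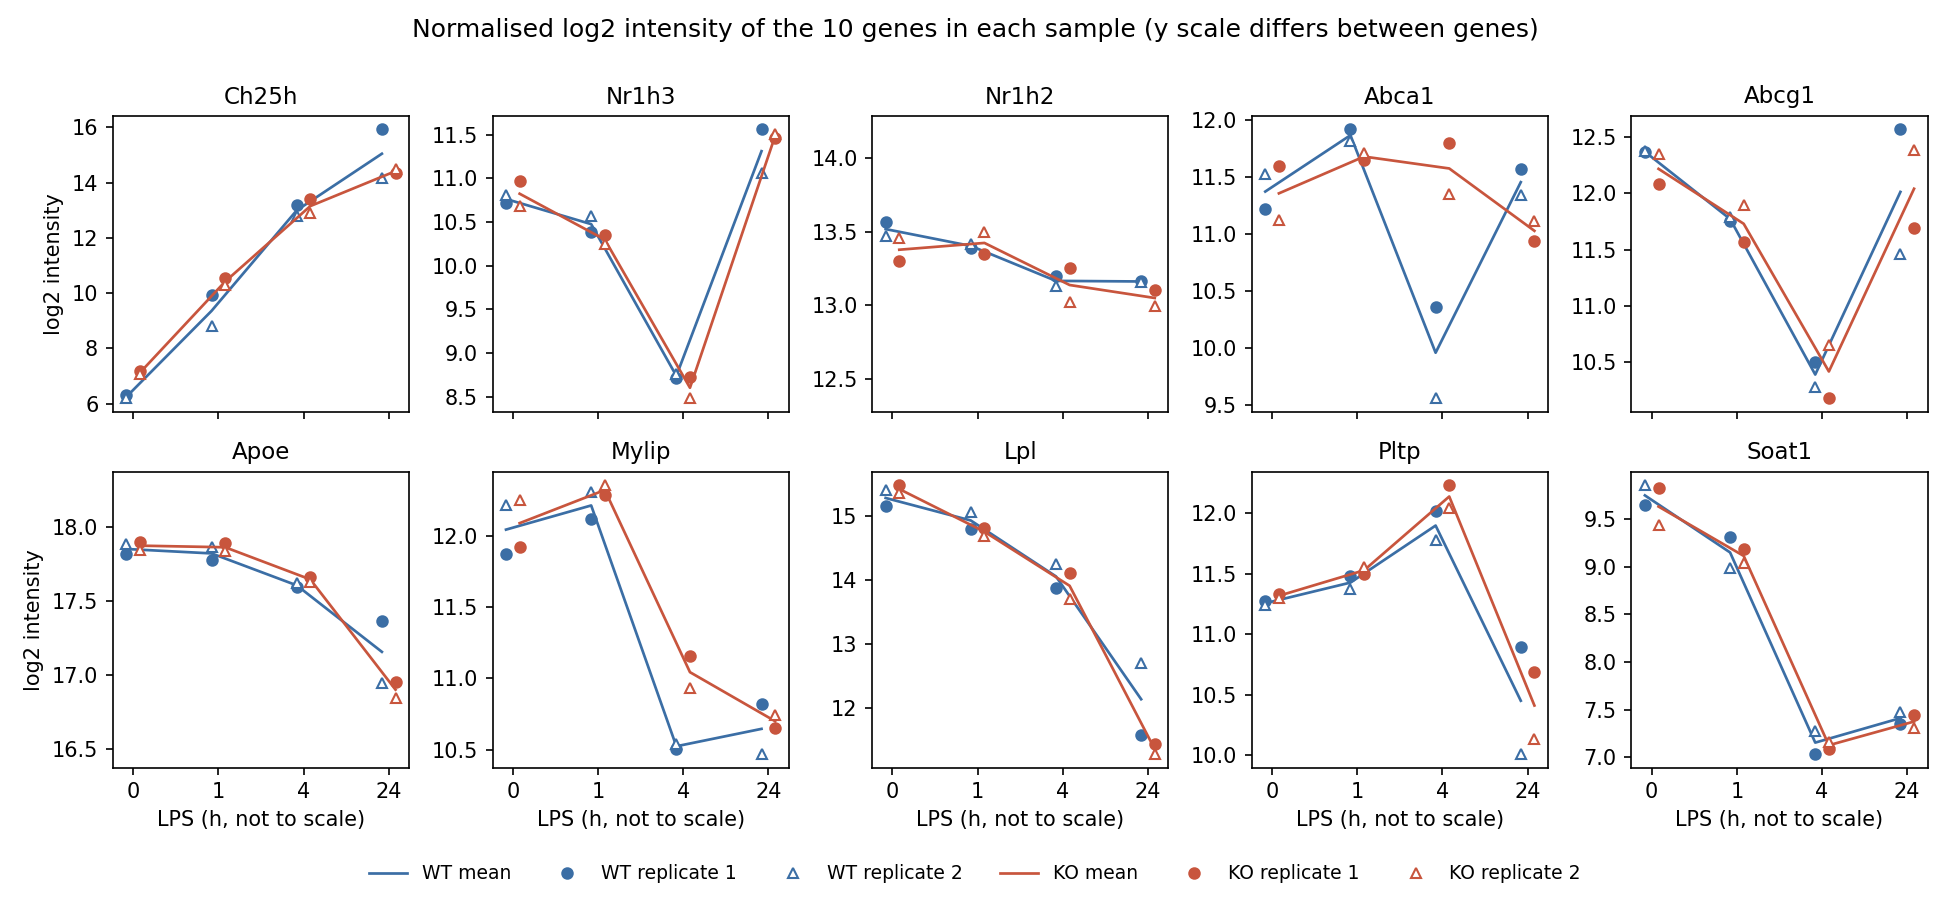
Normalised log2 intensity (y axis, scale differs between genes) against hours of LPS (x axis, not to scale) for the 10 genes, with WT in blue and KO in red. Circles are replicate 1, triangles replicate 2 and lines the mean of both. Ch25h climbed at every step in both genotypes, and the 4 h samples labelled KO stood above WT for Abca1 (11.35 and 11.80 against 9.56 and 10.36).

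Ch25h, which encodes the cholesterol hydroxylase, had the largest LPS response of the 10 genes. In WT its log2 intensity was 6.30 and 6.20 unstimulated (replicates 1 and 2), 9.92 and 8.80 after 1 h, 13.18 and 12.81 after 4 h, and 15.92 and 14.16 after 24 h. In KO it was 7.18 and 7.07, 10.54 and 10.30, 13.40 and 12.90, and 14.34 and 14.49. No sample of one time point overlapped with another time point in the same genotype. The probe was not well above background in unstimulated WT cells, so the WT increase is a bound. Measured against the lowest signals that were well above background, Ch25h was at least 7.89-fold higher at 1 h, at least 95.5-fold at 4 h and at least 386-fold at 24 h. The bounds were not tested. The fitted WT changes, which use the dim unstimulated signal, had adjusted p-values of 0.000365, 2.77e-08 and 3.66e-09 (limma). The replicates differed at 24 h, where the bound was 696-fold from replicate 1 and 214-fold from replicate 2. In KO cells, where it was measured at every time, it rose 9.82-fold, 65.1-fold and 156-fold, by 3.30, 6.03 and 7.29 on the log2 scale (SE 0.44 each, adjusted p = 0.000279, 8.48e-08 and 2.41e-08, limma). The increase in KO at 24 h ranked 9 of 20836 named genes. From 4 to 24 h Ch25h rose further by 2.05 in WT (adjusted p = 0.00228) and by 1.26 in KO (adjusted p = 0.0416, limma). The later KO rise was not past the threshold when 1 unstimulated or 1 of the 4 h arrays was left out (adjusted p from 0.0675 to 0.232) or when probes of a gene were averaged (0.0531).

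**Figure D2:**
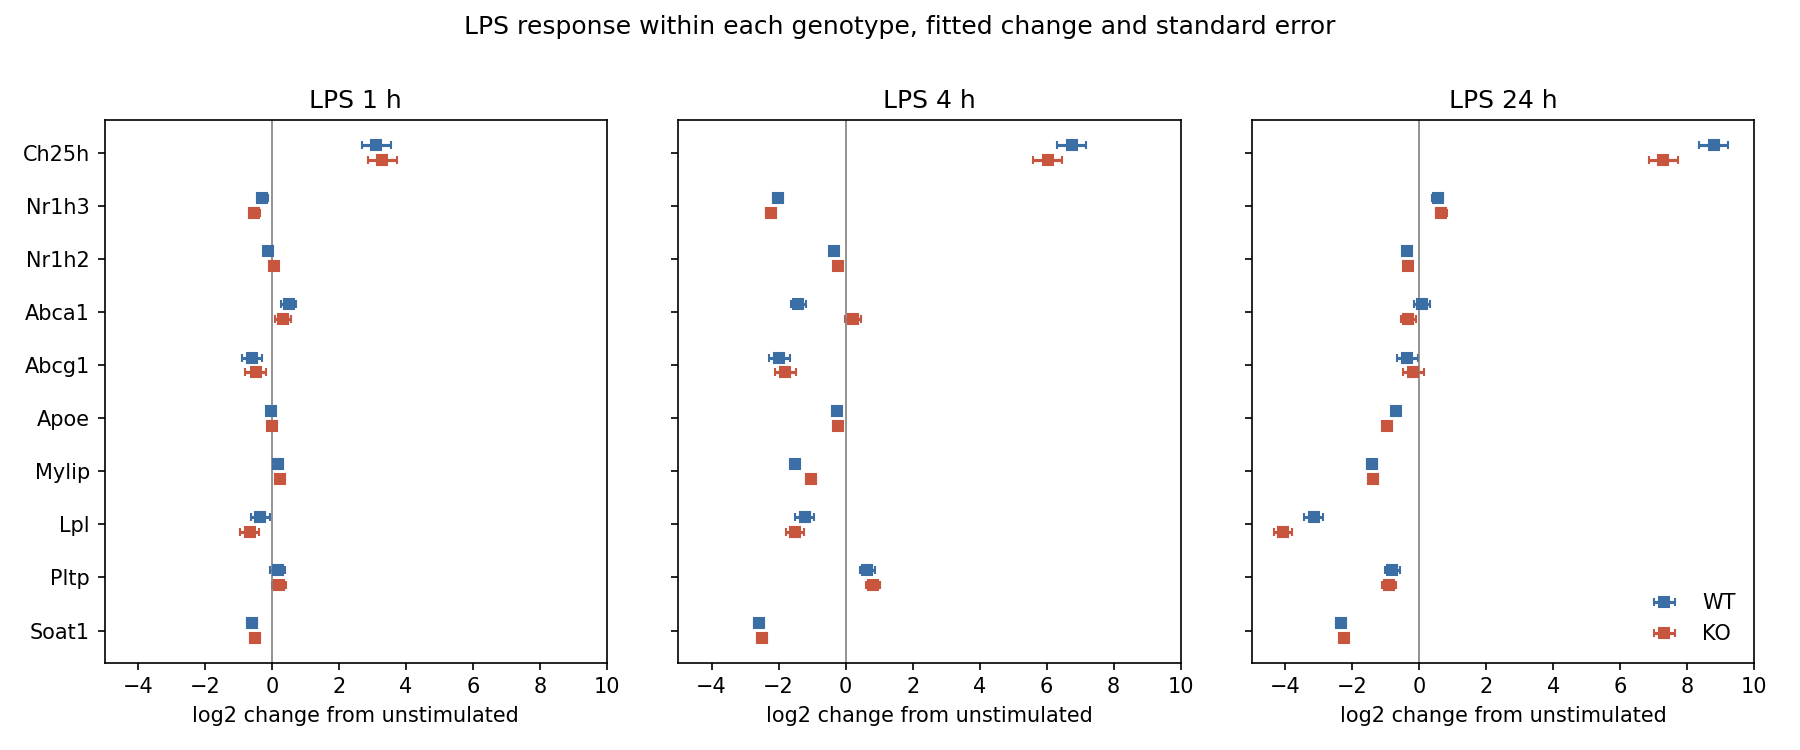
Log2 change from unstimulated (x axis) of each gene after 1, 4 and 24 h of LPS, in WT (blue) and KO (red), as fitted in limma with its standard error. The WT value of Ch25h is fitted from an unstimulated signal not well above background. Ch25h is the only one of the 10 genes above 1 at any time, and Lpl is the lowest at 24 h (-3.15 in WT and -4.07 in KO).

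The LXR genes took separate courses. Nr1h3 (LXRα) fell at 4 h and was back above its unstimulated level at 24 h. Its WT levels were 10.71 and 10.82 unstimulated, 10.39 and 10.57 after 1 h, 8.71 and 8.76 after 4 h, and 11.56 and 11.06 after 24 h. The KO levels were 10.97 and 10.68, 10.35 and 10.25, 8.72 and 8.48, and 11.46 and 11.51. The 4 h samples were the lowest in both genotypes, and no other time overlapped with them. The fall was 4.08-fold in WT (log2 -2.03, SE 0.15, adjusted p = 1.34e-07) and 4.67-fold in KO (log2 -2.22, adjusted p = 5.61e-08, limma). From 4 to 24 h Nr1h3 rose 5.96-fold in WT and 7.39-fold in KO, and at 24 h it exceeded the unstimulated level by 0.55 in WT (adjusted p = 0.014) and 0.66 in KO (adjusted p = 0.00436, limma). That excess was not past the threshold in WT without unstimulated replicate 1 (adjusted p = 0.0824) or LPS 24 h replicate 1 (0.224), nor in KO without unstimulated replicate 2 (0.0692, limma). A second Nr1h3 probe gave log2 changes at 4 h of -2.14 in WT and -2.32 in KO.

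Nr1h2 (LXRβ) moved little, with every sample between 12.999 and 13.564. Its change at 24 h was -0.35 in WT (SE 0.10, adjusted p = 0.0175) and -0.33 in KO (adjusted p = 0.0287, limma), and at 4 h -0.35 in WT (adjusted p = 0.0163). Without normalization between arrays, the 24 h changes were 0.02 and 0.05 and no longer past the threshold, so no direction is given for Nr1h2.

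The exporters Abca1 and Abcg1, which load cholesterol onto apolipoprotein A-I and HDL, fell in WT cells at 4 h. Abcg1 was at 12.36 and 12.37 in unstimulated WT cells, 11.75 and 11.79 after 1 h, 10.50 and 10.28 after 4 h, and 12.57 and 11.46 after 24 h. In KO cells it was at 12.08 and 12.35, 11.56 and 11.89, 10.18 and 10.65, and 11.69 and 12.39. The 4 h samples stood apart from all others in both genotypes. Abcg1 fell 3.94-fold in WT (log2 -1.98, SE 0.31, adjusted p = 0.000138) and 3.48-fold in KO (log2 -1.80, adjusted p = 0.000313, limma), and from 4 to 24 h it rose 3.08-fold in both. At 24 h the replicates of each genotype spread widely, and the change of Abcg1 from unstimulated was -0.36 in WT (adjusted p = 0.48) and -0.18 in KO (adjusted p = 0.772, limma).

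Abca1 showed this fall in its WT samples, and the test of the genotypes against each other is given further on. Its WT levels were 11.21 and 11.53 unstimulated, 11.92 and 11.81 after 1 h, 10.36 and 9.56 after 4 h, and 11.57 and 11.34 after 24 h. Its KO levels were 11.59 and 11.12, 11.65 and 11.71, 11.80 and 11.35, and 10.94 and 11.12. In WT the 4 h samples were the lowest, while in KO one 4 h sample was the highest of all KO samples and the other lay within the range of the earlier ones. In WT Abca1 fell 2.66-fold at 4 h (log2 -1.41, SE 0.23, adjusted p = 0.000201) and rose 2.82-fold from 4 to 24 h (adjusted p = 0.000173, limma). In KO the corresponding log2 changes were 0.22 (95% interval -0.28 to 0.72, adjusted p = 0.55) and -0.55 (adjusted p = 0.0967, limma).

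Apoe, the lipoprotein that accepts exported cholesterol, was the brightest probe of the set and fell late. Its levels were 17.82 and 17.88 in WT and 17.90 and 17.85 in KO unstimulated, and 17.37 and 16.94 in WT and 16.95 and 16.84 in KO at 24 h. The 24 h samples were below all unstimulated ones. The fall was 1.62-fold in WT (log2 -0.70, SE 0.12, adjusted p = 0.000357) and 1.96-fold in KO (log2 -0.97, adjusted p = 1.93e-05, limma), while at 1 and 4 h no change passed the test (log2 changes from -0.25 to -0.01).

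The other LXR targets did not move as one. Mylip, the ubiquitin ligase that limits cholesterol uptake, was at 11.87 and 12.22 in unstimulated WT cells, 12.12 and 12.31 after 1 h, 10.51 and 10.54 after 4 h, and 10.82 and 10.47 after 24 h. In KO cells it was at 11.93 and 12.25, 12.29 and 12.36, 11.16 and 10.93, and 10.66 and 10.74. The 4 and 24 h samples lay below all earlier ones. The log2 change of Mylip was -1.52 in WT and -1.05 in KO at 4 h (adjusted p = 1.89e-06 and 6.77e-05) and -1.40 and -1.39 at 24 h (adjusted p = 6.51e-06 and 7.47e-06, limma).

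Lpl, which releases fatty acids from lipoproteins, fell further at each of the later times. In WT it went from 15.15 and 15.41 to 14.79 and 15.07 after 1 h, 13.86 and 14.24 after 4 h, and 11.56 and 12.70 after 24 h. In KO it went from 15.48 and 15.36 to 14.82 and 14.69, 14.11 and 13.70, and 11.43 and 11.27. The time points did not overlap within a genotype. At 24 h Lpl was 8.86-fold lower in WT (log2 -3.15, SE 0.28, adjusted p = 9.74e-07) and 16.8-fold lower in KO (log2 -4.07, adjusted p = 8.77e-08, limma), the 89th and 41st largest falls among 20836 named genes. A second Lpl probe gave log2 changes of -2.95 and -3.60.

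Pltp, the phospholipid transfer protein, rose at 4 h and fell below its unstimulated level at 24 h. It was at 11.27 and 11.24 in unstimulated WT cells, 12.02 and 11.78 at 4 h, and 10.89 and 10.01 at 24 h, and at 11.34 and 11.30, 12.23 and 12.05, and 10.69 and 10.13 in KO cells. All 4 h samples were above and all 24 h samples below the unstimulated ones. The rise was 0.64 in WT (SE 0.22, adjusted p = 0.0353) and 0.82 in KO (adjusted p = 0.00854), and the 24 h change was -0.81 in WT (adjusted p = 0.0115) and -0.91 in KO (adjusted p = 0.00565, limma, log2 scale). The WT rise was not past the threshold without normalization between arrays (adjusted p = 0.179) or without any 1 of the unstimulated, 1 h or 4 h arrays (0.0565 to 0.209, limma). The KO rise was lost without unstimulated replicate 2 (0.0596) or LPS 4 h replicate 1 (0.0747), and the WT fall at 24 h without either unstimulated array (0.0734 and 0.0632) or LPS 24 h replicate 2 (0.0721, limma).

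Soat1, the enzyme that esterifies cholesterol for droplets, fell at 4 h and stayed low. Its WT levels were 9.64 and 9.85 unstimulated, 9.32 and 8.98 after 1 h, 7.03 and 7.28 after 4 h, and 7.35 and 7.47 after 24 h. The KO levels were 9.82 and 9.44, 9.18 and 9.04, 7.09 and 7.17, and 7.45 and 7.30. The 4 and 24 h samples lay far below the earlier ones. Soat1 fell 6.03-fold in WT and 5.67-fold in KO at 4 h (log2 -2.59 and -2.50, SE 0.15, adjusted p = 9.71e-09 and 1.37e-08, limma) and was 5.04-fold and 4.77-fold lower at 24 h. At 1 h the change was -0.60 in WT (adjusted p = 0.0227) and -0.52 in KO (adjusted p = 0.0542, limma), and leaving out unstimulated or LPS 1 h replicate 2 lost the WT call (adjusted p = 0.123 and 0.273, limma). With the replicate number as a block, 4 of the 10 genes rather than 1 passed in KO at 1 h, where 11.8% of all did, by the addition of Soat1 (adjusted p = 0.0273), Nr1h3 (log2 -0.53, adjusted p = 0.034) and Lpl (log2 -0.67, adjusted p = 0.0228, limma).

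Between the genotypes, the largest difference among the 10 genes in the main fit was in Abca1 at 4 h. With the processed signals of the scanner software, the unstimulated Ch25h ratio was larger (3.57 on the log2 scale). None of the 10 genes passed the test of the KO/WT ratio at any time point in the fit without a block, where 0%, 0%, 0.0135% and 0.0244% of 36949 genes and transcripts did at 0, 1, 4 and 24 h. At an unadjusted p under 0.05 the counts were 1, 1, 3 and 3 of the 10 genes, where 5.78%, 5.48%, 4.3% and 3.43% of all had one. With the replicate number as a block, Abca1 passed at 4 h and Lpl at 24 h, where 0.566% and 0.585% of all did. For the mean ratio over the 4 time points, 0 of the 10 genes passed (0.566% of all), and 2 had an unadjusted p under 0.05, as did 10.7% of all. No gene of the 10 passed for the difference between the genotypes in their response to LPS at 1, 4 or 24 h, where 0% of all did.

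**Figure D3:**
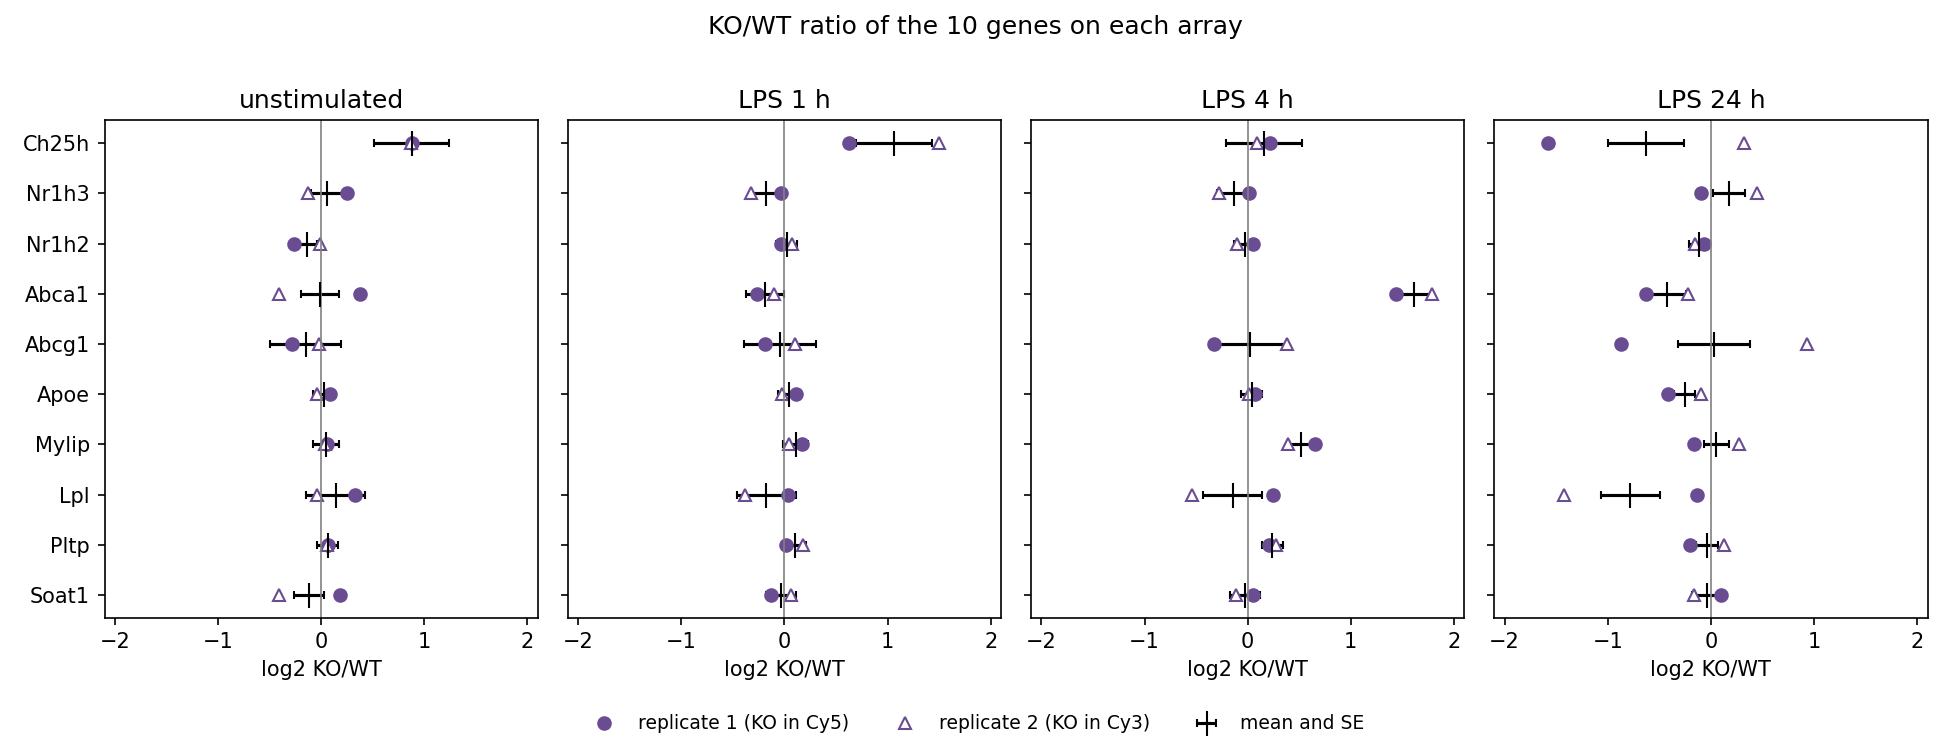
Log2 KO/WT ratio (x axis) of the 10 genes at each time point on the array of replicate 1 (circle) and of replicate 2 (triangle), with the fitted mean and its standard error. Both Abca1 arrays at 4 h lie near the right edge (1.44 and 1.79), while the Ch25h arrays at 24 h lie on opposite sides of 0 (-1.58 and 0.32).

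The log2 KO/WT ratio of Abca1 at 4 h was 1.44 and 1.79 on the arrays of replicates 1 and 2. It thus exceeded 1 in either dye orientation, and the samples labelled KO (11.80 and 11.35) did not overlap with WT (10.36 and 9.56). The mean of 1.61 (SE 0.18, 95% interval 1.19 to 2.03) is a 3.06-fold higher level in the samples labelled KO, and ranked 4 of 20846 named genes. Its adjusted p was 0.0723 without and 0.00352 with the replicate block (limma), and it was under the threshold after Aquantile normalization or loess alone (0.0496 in both) and without either unstimulated array (0.0284). Abca1 and Ch25h were among the genes the study picked from these arrays for a different LPS course, so the size of their ratios is not independent evidence. The ratio was 0.38 and -0.41 unstimulated, -0.27 and -0.10 at 1 h, and -0.63 and -0.22 at 24 h. The 24 h mean of -0.43 (adjusted p = 1.00, limma) had the opposite sign to that at 4 h. The LPS response at 4 h differed between the genotypes by 1.06 and 2.20 in the replicates, with a mean of 1.63 (SE 0.26, adjusted p = 0.612, and 0.0599 with the replicate block, limma).

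Other cell types were examined beside the Abca1 ratio at 4 h. The summed log2 level of the 4 measured macrophage markers was 18.10 and 17.84 in WT and 18.12 and 18.34 in the samples labelled KO. The markers differed in direction, since Cd14 was at 17.19 and 16.87 in WT and 17.36 and 17.92 in KO, and Csf1r at 16.43 and 16.16 in WT and 16.02 and 15.52 in KO. The sum of the 5 mast cell markers was 13.52 and 13.21 in WT and 13.30 and 14.28 in KO, and that of the 7 markers of steroid-producing cells was 12.02 and 10.06 in WT and 10.40 and 10.59 in KO, with KO/WT log2 ratios of -4.09 to 0.43 in replicate 1 and -0.77 to 2.32 in replicate 2, and 3 or 4 of the 7 were well above background in each sample. The B cell sum was 15.11 and 15.37 in WT and 14.72 and 15.33 in KO. The median KO/WT log2 ratio was -0.20 and -0.16 for B cell markers, -0.36 and -0.12 for mesothelial and fibroblast markers, 0.43 and -0.38 for T and NK cell markers, and -0.02 and 0.92 for mast cell markers. The part of these markers in the Abca1 ratio was not tested.

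Mylip had the second-highest ratio of the 10 genes at 4 h. It was 0.65 and 0.39 on the arrays of replicates 1 and 2, with a mean of 0.52 (SE 0.12, 95% interval 0.24 to 0.80, adjusted p = 0.56, and 0.0938 with the block, limma). The KO-labelled samples (11.16 and 10.93) were both above WT (10.51 and 10.54), and the second Mylip probe gave 0.45. At the other times the mean ratio of Mylip was between 0.05 and 0.11.

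The Ch25h ratio was above 0 on both unstimulated and both 1 h arrays. It was 0.88 and 0.87 in unstimulated cells (adjusted p of the fitted mean = 0.819, limma). There the WT level was not well above background and KO was at least 1.69-fold higher, a bound that was not tested. The fitted ratio of 0.88 became 3.57 with the processed signals of the scanner software, and was otherwise between 0.85 and 0.97 over the alternatives run, none of which passed the test. At 1 h it was 0.62 and 1.501 (mean 1.06, SE 0.37, adjusted p = 0.767, limma), and both KO samples (10.54 and 10.30) were above WT (9.92 and 8.80). On the same arrays the median KO/WT log2 ratio of the B cell markers was 0.20 and 0.27 unstimulated and 0.63 and 0.27 at 1 h, and that of the T and NK cell markers 0.56 and 0.08 unstimulated and 0.77 and 0.06 at 1 h. The mast cell markers gave -0.08 and 0.89 unstimulated and 0.05 and 0.57 at 1 h, and the macrophage markers -0.07 and 0.14 unstimulated and -0.24 and 0.02 at 1 h. At 4 h the mean was 0.16, and at 24 h the arrays gave -1.58 and 0.32. The difference in fitted LPS response, KO minus WT, was -0.66 and -0.78 at 4 h and -2.46 and -0.55 at 24 h, values whose means did not pass (adjusted p = 1.00 at both times, and 0.823 and 0.209 with the replicate block, limma) and that rest on the dim unstimulated WT signal. At 24 h the sum of the 4 neutrophil markers was 15.87 and 14.47 in WT and 15.20 and 15.98 in KO, and S100a8 made up most of it. The median KO/WT log2 ratio of these markers was -0.29 in replicate 1 and -0.03 in replicate 2 (-0.65 to 1.57), and 2 of the 4 (S100a9 and Ngp) were not well above background. The part of the markers of any of these cell types in the Ch25h ratios was not tested.

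Lpl at 24 h was below 0 on both arrays, by unequal amounts. Its ratio was -0.14 on the array of replicate 1 and -1.43 on that of replicate 2 (mean -0.78, SE 0.29, adjusted p = 1.00, and 0.0338 with the block, limma), and a second probe gave a mean of -0.67. Beside it, the median KO/WT log2 ratio of the macrophage markers was -0.19 and -0.45, and that of the mast cell markers 0.11 and 0.95, and their part in the Lpl ratio was not tested.

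The remaining genes had small or opposed ratios. Abcg1 at 24 h was -0.87 and 0.93, Nr1h3 -0.10 and 0.45. The mean ratios of Nr1h3, Nr1h2, Abcg1, Apoe, Pltp and Soat1 at all 4 time points lay between -0.26 and 0.24.

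Other genes of oxysterol, LXR and cholesterol handling were followed as a list of 32, of which 31 were measured. In WT 4 of the 31 passed the LPS test at 1 h (2 in each direction), 20 at 4 h (4 higher and 16 lower) and 20 at 24 h (3 higher and 17 lower). In KO 4 passed at 1 h (2 in each direction), 19 at 4 h (4 higher and 15 lower) and 21 at 24 h (3 higher and 18 lower). The shares of all genes tested are those given above, and the list was chosen with earlier results of these data known.

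**Figure D4:**
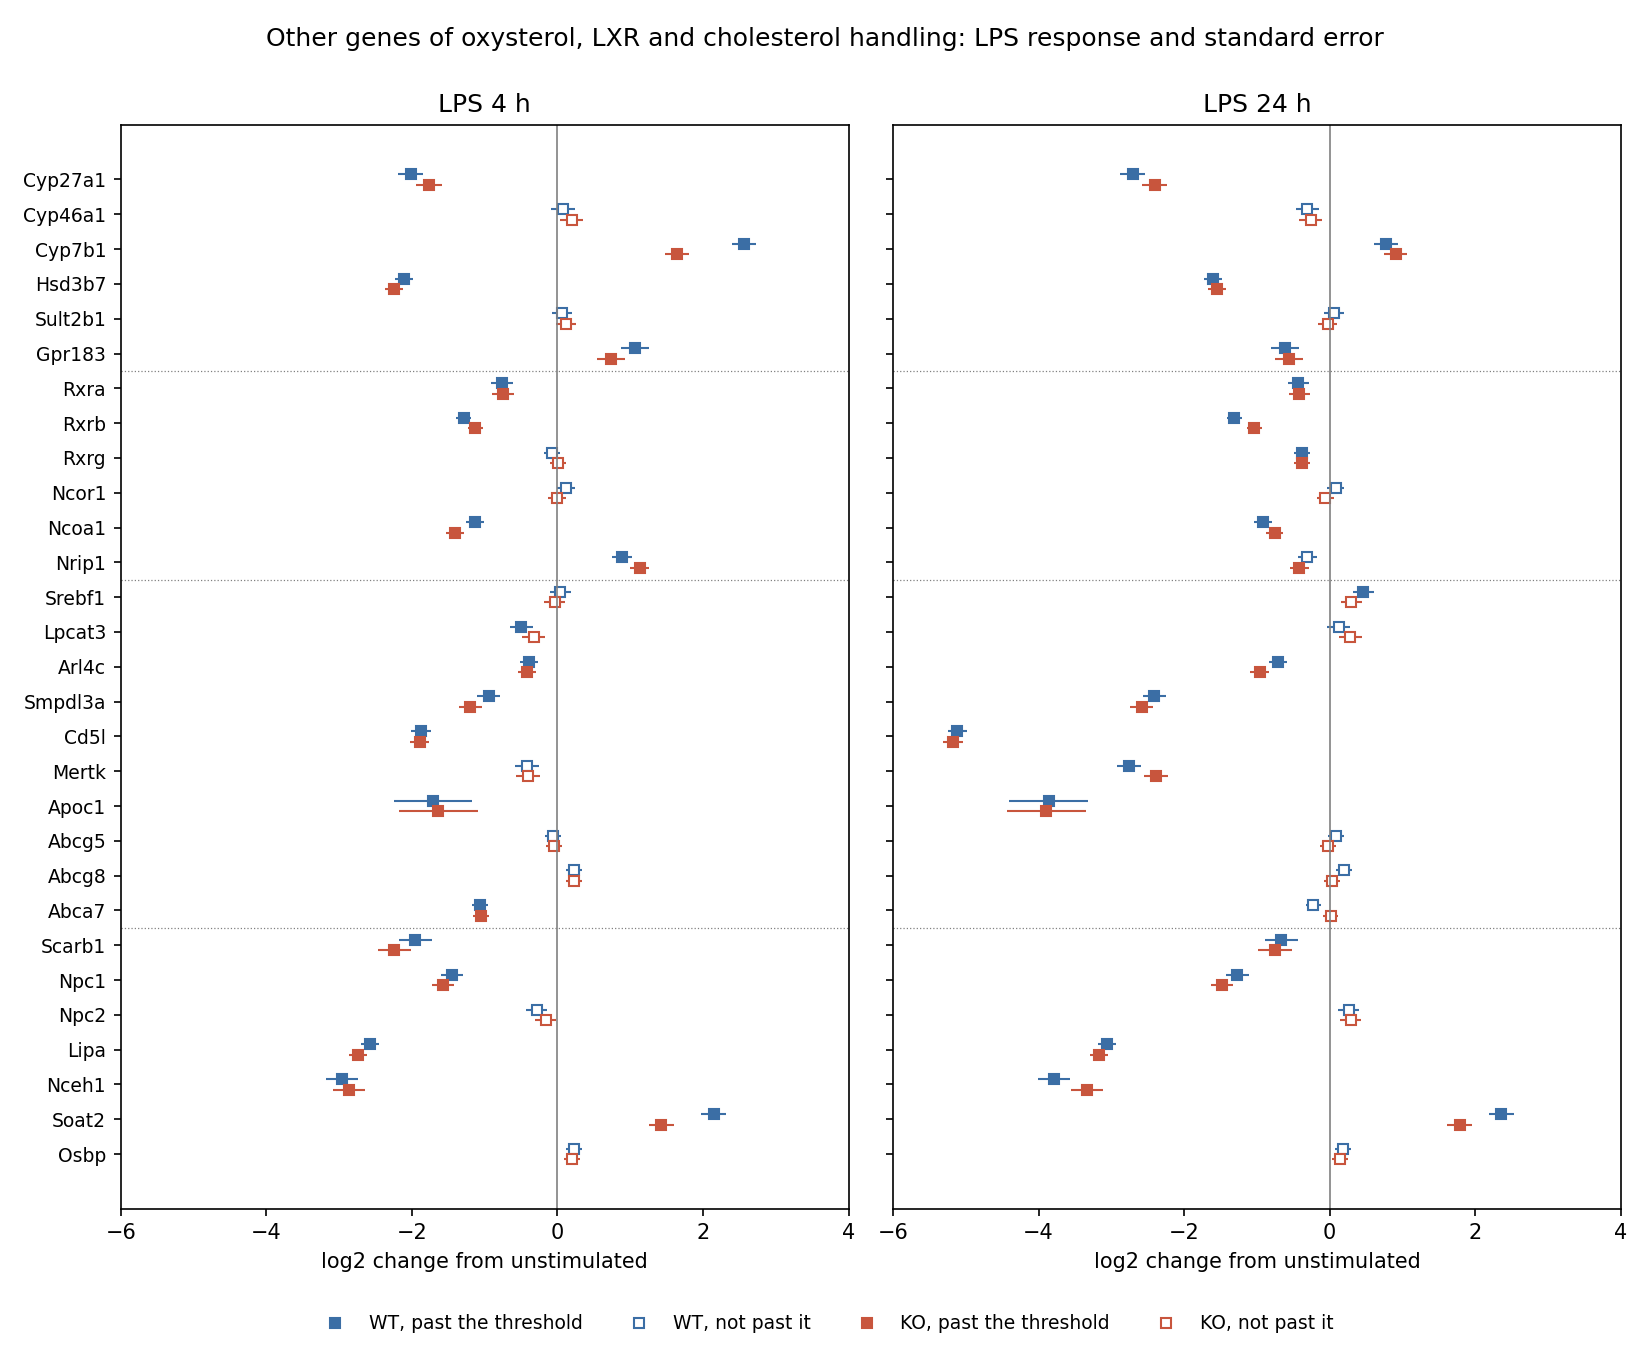
Log2 change from unstimulated (x axis) with its standard error for 29 further genes after 4 and 24 h of LPS, in WT (blue) and KO (red). Filled squares passed the adjusted threshold of 0.05, open ones did not, and dotted lines separate oxysterol metabolism and sensing, LXR partners, other LXR targets, and cholesterol uptake, storage and lysosomal export. Cd5l at 24 h lies farthest left (-5.12 and -5.18).

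Among genes of oxysterol metabolism, the 4 h response went both ways. Cyp7b1, which hydroxylates oxysterols further, was not well above background in unstimulated cells of either genotype. At 4 h it was at least 5.26-fold higher in WT and at least 2.82-fold higher in KO, bounds that were not tested. The fitted changes of Cyp7b1 had adjusted p = 2.2e-08 and 1.76e-06 (limma). Its log2 KO/WT ratio at 4 h was -0.56 and -1.25 (mean -0.91, adjusted p = 0.365, and 0.0224 with the block, limma). Gpr183, the receptor for oxysterols that are made with the enzymes of both genes, rose by 1.06 in WT and 0.74 in KO (adjusted p = 0.000542 and 0.0079, limma). Cyp27a1, a mitochondrial sterol hydroxylase, changed by -2.01 in WT and -1.77 in KO (adjusted p = 4.6e-07 and 1.74e-06), and Hsd3b7, which acts on hydroxylated sterols, by -2.11 and -2.25 (adjusted p = 1.41e-08 and 7.7e-09, limma).

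At 4 h more LXR partners and co-regulators fell than rose. In both genotypes 4 of 7 were lower and 1 higher. Of all genes tested, 19.3% were lower and 15.5% higher in WT, and 19.8% and 16.2% in KO. The log2 change was -1.29 in WT and -1.13 in KO for Rxrb, an LXR partner (adjusted p = 2.28e-07 and 8.49e-07, limma). Nrip1, a nuclear receptor co-regulator, rose by 0.89 and 1.13 (adjusted p = 8.8e-05 and 9.34e-06, limma).

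Of the other LXR targets, 6 of 10 were lower at 4 h in WT and 5 in KO, and 5 were lower at 24 h in both. Over all genes tested, 19.3% in WT and 19.8% in KO were lower at 4 h, and 17% and 16% at 24 h. Cd5l, a secreted macrophage protein, went from 13.38 and 13.35 to 8.38 and 8.12 in WT and from 13.98 and 14.21 to 8.87 and 8.98 in KO at 24 h. Its log2 change was -5.12 in WT and -5.18 in KO (adjusted p = 1.23e-11 and 1.27e-11, limma). Apoc1, an apolipoprotein, changed by -3.86 and -3.90, and Mertk, a receptor for apoptotic cells, by -2.76 and -2.38.

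For cholesterol uptake, storage and lysosomal export, 4 of 8 genes were lower at 4 and at 24 h in both genotypes. The shares of all genes tested that were lower were 19.3% in WT and 19.8% in KO at 4 h, and 17% and 16% at 24 h. At 24 h Nceh1 and Lipa, which release cholesterol from its esters, changed by -3.78 and -3.05 in WT and by -3.34 and -3.17 in KO (adjusted p from 5.69e-10 to 6.04e-08, limma). Soat2, the second acyltransferase, rose from 8.92 and 8.57 to 11.17 and 11.03 in WT and from 9.58 and 9.49 to 11.33 and 11.30 in KO, by 2.36 and 1.78 on the log2 scale (adjusted p = 1.54e-07 and 2.39e-06, limma), whereas Soat1 fell.

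Between the genotypes, 5 of the 31 passed for the mean ratio over the 4 time points, where 0.566% of all did. The list was chosen with earlier results of these data known, so this count beside that share is not independent evidence. Apoc1 (log2 0.92, SE 0.12, adjusted p = 0.0263), Cd5l (0.76, SE 0.07, adjusted p = 0.00728) and Soat2 (0.38, adjusted p = 0.049) were higher in KO, and Lipa (-0.48, adjusted p = 0.0268) and Hsd3b7 (-0.44, adjusted p = 0.033, limma) lower. The Cd5l ratio was positive on all 8 arrays, from 0.49 to 1.15, as was that of Apoc1, from 0.30 to 1.36.

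The genes whose level most resembled that of Ch25h over the 16 channels were Ero1a, Cxcl3 and Rbmx2 (Pearson's r = 0.983, 0.980 and 0.980 among 20835 named genes). For Lpl they were Cd9, Emp3 and Dock1 (r = 0.996, 0.989 and 0.986), and for Abca1 Cebpe, Calcoco2 and Atxn1 (r = 0.896, 0.800 and 0.793). Among the 10 genes themselves, Ch25h ran most opposite to Soat1 (r = -0.925) and Lpl closest to Apoe (r = 0.924), whereas Abca1 was closest to Mylip (r = 0.593). The 16 channels share arrays in pairs and 4 time points, so these values are descriptions.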

How the data were processed

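RNA of peritoneal macrophages was measured on 8 Agilent two-colour arrays, with 2 arrays for each of 4 time points. Samples were grouped by genotype and time from the titles and characteristics of the labels, although the growth protocol in the labels gives 4 h throughout. The authors scanned the arrays with Agilent Feature Extraction 10.7.3 and deposited the median intensity and background of each dye and spot, which were used here. They also deposited normalized log2 Cy5/Cy3 ratios, which were used only as an alternative and correlated with those computed here at r = 0.987 to 0.996. The study's own analysis used loess and quantile normalization, an intensity filter and a t-test.

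Spots marked as outliers were left out. Background was corrected with normexp (offset 50), followed by loess within and quantile normalization between arrays (limma 3.58.1 and statmod 1.5.0 in R 4.3.3). Each gene took its brightest probe. Of 55681 gene probes 27509 carried a gene symbol, giving 20887 named genes, and 5512 genes had several probes. Genes whose log2 intensity averaged 6 or more were tested. KO was compared with WT on the log2 ratios of the 8 arrays, with 4 residual degrees of freedom. LPS responses were fitted on the 16 separate channels with a within-spot correlation of 0.100, and p-values were adjusted by Benjamini-Hochberg over all genes tested (threshold 0.05). Bounds on probes not well above background used per-channel values after loess and Aquantile normalization. The fits were run on simulated data with independent noise on each array. Those data lack the correlation of replicate differences given below, so they do not test the fits under it. Between 43.8% and 51.3% of probes were well above background in a dye, and no spot was saturated. Only 2 arrays for each time limit the precision.

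The replicate numbers, which follow the dye orientation, were checked for pairing. The replicate difference in log2 KO/WT correlated between time points at r = 0.475 to 0.679 over 6 pairs, that of WT channels at 0.339 to 0.565 and that of KO channels at 0.214 to 0.336, so values blocked on replicate number are given where they change a call.

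The named genes are the 10 genes, Furin and Lyz2, and of the pathway list up to 3 with the largest changes in each direction among those called. Cyp27a1, Rxrb, Nrip1 in WT and Gpr183 in KO at 4 h, and Mertk and Lipa at 24 h, fall outside that rule and were chosen after their values were seen. The 3 genes most like Ch25h, Abca1 and Lpl were those with the highest Pearson's r. Some genes of the pathway list are counted but not reported here by name. The genes and lists were chosen with earlier results of these data known. Promoters are from RefSeq (GRCm38.p6). Alternatives were Aquantile or no normalization between arrays, processed signals, no background correction, no filter or one on probes well above background, the mean over probes, the deposited ratios, the replicate block, the t-test of the methods, and leaving out each array.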

Additional observations from a re-analysis of the deposited data

Results flagged for a closer look

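The responses of Abca1 at 4 h had opposite signs in the genotypes when each sample was set against the unstimulated sample of its own replicate number. They were -0.86 and -1.97 in WT and 0.21 and 0.23 in the samples labelled KO, a difference of 1.63 on the log2 scale. The WT change passed the test, whereas the KO change did not (mean 0.22, 95% interval -0.28 to 0.72, adjusted p = 0.550, limma), and the KO sample of replicate 2 at 4 h (11.35) was below the unstimulated KO sample of replicate 1 (11.59). The test of the difference did not pass, with an adjusted p of 0.612 (limma) and of 0.0599 with the replicate block.

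For Nr1h2 at 1 h the same pairing gave -0.18 and -0.05 in WT and 0.05 and 0.04 in KO, values that did not pass the test in either genotype (adjusted p = 0.689 in WT and 0.913 in KO, limma). The difference of 0.16 did not pass either, with an adjusted p of 1.00 (limma) with or without the replicate block, so no direction is given.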

How the results depend on the processing

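Of 48 results on single genes past the threshold, 37 stayed past it under every alternative run. The other 11 did not under at least 1, and for 6 of them this was an alternative other than leaving out an array. The change of Nr1h2 at 24 h turned to 0.0164 in WT and 0.0550 in KO with loess within arrays only. The KO/WT ratio of Ch25h at 24 h was between -1.58 and 0.321 when 1 array was left out, and 0.321 without LPS 24 h replicate 1. For KO against WT, 1 of the 10 genes (Abca1) rather than 0 passed at 4 h with Aquantile, with loess only and with the replicate block, and 0 to 1 when 1 array was left out, with 1 without either unstimulated array. At 24 h 1 gene (Lpl) passed with the replicate block. At 1 h of LPS in KO, 3 genes rather than 1 passed with loess only and with the filter on probes well above background, 2 with processed signals and with the mean over probes, 4 with the replicate block, and 1 to 3 when 1 array was left out. Leaving out an array gave 1 to 2 genes in WT at 1 h, 7 to 9 at 4 h and 5 to 8 at 24 h, with 5 without unstimulated replicate 1. In KO it gave 6 to 7 at 4 h and 6 to 8 at 24 h. The replicate block changed no other call of the 10 genes. The cause of these changes was not tested.

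The KO/WT ratio of Abca1 at 4 h ranged from 1.44 to 1.79 over 18 alternatives, with adjusted p-values of 0.00352 to 1.00 (limma). The t-test of the methods called 1, 0, 1 and 0 of the 10 genes at 0, 1, 4 and 24 h at an unadjusted threshold of 0.05, where 4.58%, 4.75%, 3.05% and 4.1% of all genes passed, and 0 after Benjamini-Hochberg adjustment. The processed signals shifted the median of all genes at 24 h in WT by -0.11 on the log2 scale. Ch25h was near background in unstimulated WT cells, which limits its unstimulated KO/WT ratio. It also limits the WT changes of Ch25h from unstimulated and its differences in LPS response.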
